A study of Mus musculus with 4 samples.

Results

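Plasma cells are the antibody-secreting end stage of the B cell lineage. They are known for very high immunoglobulin (Ig) transcription, an enlarged endoplasmic reticulum (ER) driven by the transcription factor XBP1, and homing receptors that take cells of different heavy chain classes to different tissues. The J chain joins IgM and IgA monomers into polymers, which epithelia can export. Herein, the plasma cells among ChAT-eGFP+ cells of mouse subcutaneous fat were described gene by gene, with and without the Ig genes, at thermoneutrality and after acute cold. Plasma cells were defined by raw counts of unique molecular identifiers (UMIs) in each cell, after keeping cells with over 200 genes, under 5000 genes and under 7.5% mitochondrial UMIs. A cell needed at least 1 UMI each of Derl3 and Mzb1, at least 20 of Jchain, at least 1 of Tnfrsf17 or Sdc1, and 0 of the T cell gene Cd3e, the germinal centre B cell gene Rgs13 and the macrophage gene C1qa. This rule found 328 plasma cells among 21249 kept cells, of 26654 cells deposited.

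Male ChATBAC-eGFP mice, which carry an eGFP reporter of choline acetyltransferase on a bacterial artificial chromosome, entered the study at 5 weeks of age and all spent 3 weeks at 30 °C. They then stayed at 30 °C for 4 h more or were moved to 4 °C for 4 h. Per the study's methods the cold mice also had a day at room temperature before the cold, so that step and the cold cannot be told apart here. Live eGFP+ cells were sorted from inguinal fat after removal of the adipocytes (the stromal vascular fraction) and profiled by droplet RNA sequencing, in 2 libraries per temperature, each from 4 pooled mice. Values of the 4 libraries are given in the order 30 °C replicate 1, 30 °C replicate 2, 4 °C replicate 1, 4 °C replicate 2. The libraries held 103, 70, 77 and 78 plasma cells with 3528619, 2082447, 2586964 and 2648637 UMIs. The median plasma cell had 31472, 28242, 32965 and 34336 UMIs and 2505, 2360, 2686 and 2679 genes. No plasma cell barcode was shared between libraries, although each pair of libraries shared 5 to 14 barcodes among its kept cells.

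The label was checked on marker genes that the rule did not use, and these levels are a description with no test. Xbp1 stood at 1874, 2430, 2257 and 2484 CPM of non-Ig UMIs (counts scaled to a common total of non-Ig UMIs) in plasma cells, against a mean of 28.3 in Ighd-positive B cells of the same libraries. Fam46c, an RNA polyadenylating enzyme of plasma cells that is also named Tent5c, had a mean of 657 on that scale against 8.28 in the B cells. The folding enzymes Txndc5 and Fkbp11 had means of 2637 and 363, against 71.1 and 5.88. Prdm1, which encodes the repressor BLIMP-1, had a mean of 221 against 4.89. Pax5, the factor that holds B cell identity, had a mean of 13.4 against 214, and the B cell surface gene Ms4a1 had 99.6 against 806. All 8 plasma cell markers outside the rule were higher on average in plasma cells, and the smallest ratio was that of Tnfrsf13b, a receptor for survival ligands, at 1.54.

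Among the genes of the rule, Jchain reached 152157, 156411, 140505 and 150613 CPM of non-Ig UMIs. Sdc1, the surface proteoglycan syndecan, was found in 311 of the 328 cells and Tnfrsf17, the survival receptor BCMA, in 290. Of the cells that met the rest of the rule, 8 had 0 to 4 Jchain UMIs and 0 had 5 to 19. The lowest plasma cell had 27 and the next lowest 110. Jchain is part of the rule, so these counts do not support the label.

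Most marker lists of other cell types summed lower in these cells than in the other kept cells of the same library. The exceptions were the dendritic cell list, which summed to 458 to 715 in the other kept cells, and the stromal list in 4 °C replicate 2, with 419 there. In the other kept cells the germinal centre list summed to 57.3 to 147 and the endothelial list to 75.9 to 154. The 11 T cell markers summed to 93.9, 167, 91.9 and 106 CPM of non-Ig UMIs, against 2630 to 3360 in the other kept cells, with Trbc2 the most abundant and none at 0. The 9 macrophage markers summed to 132, 93.5, 124 and 80.2, led by Fcer1g, with none of the 9 at 0. Of these, Mrc1 was among the genes called lower in the cold (27.8, 34.4, 6.78 and 9.45 CPM of the genes tested, -1.89 ± 0.39 on the log2 scale, adjusted p = 0.026, edgeR), as was Gpnmb, another gene of macrophages (-1.84 ± 0.32). The 7 follicular B cell markers summed to 197, 282, 354 and 241, led by Fcmr, the 6 germinal centre markers to 29.6, 27.4, 31.0 and 51.5, led by Fas, and the 6 innate lymphoid markers to 19.5, 8.73, 13.5 and 14.9, led by Rora. The 6 endothelial markers summed to 22.4, 26.2, 26.1 and 31.7, led by Pecam1 and with 1 at 0, and the 6 red cell, mast cell and neutrophil markers to 0.722, 0, 0.967 and 0.990, with 3 at 0. The 6 dendritic cell markers summed to 1157, 1192, 1700 and 1125, nearly all of it Cst3, and to 76.6, 7.48, 29.0 and 25.7 without it. The stromal list stood apart in 1 library: its 6 genes summed to 7.95, 13.7, 13.5 and 710, and 309 of the 494 Dcn UMIs of 4 °C replicate 2 came from 1 cell. At least 5 UMIs of one of these lineages (T cells, macrophages, dendritic cells without Cst3, innate lymphoid cells, stromal or endothelial cells) were seen in 18, 6, 10 and 8 cells. Without those 42 cells, an alternative chosen after seeing the data, 127 genes differed between temperatures, and they included 92 of the 97 genes described below. Mrc1 kept its call without those cells (-1.73, adjusted p = 0.046, edgeR) and lost it in 4 of 15 alternatives.

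Plasma cells made up 1.98% (95% interval 1.62 to 2.40), 1.30% (1.01 to 1.64), 1.45% (1.14 to 1.80) and 1.46% (1.16 to 1.82) of the kept cells. These are exact Clopper-Pearson intervals and cover counting error only. The temperatures overlapped, with 1.64% ± 0.48 (SD, n = 2) at 30 °C and 1.45% ± 0.01 at 4 °C (two-sided exact permutation test, p = 1, where 2 libraries against 2 cannot go below p = 0.33). These are shares of sorted cells and do not give the number of plasma cells in the tissue. The few plasma cells contributed 6.61%, 3.87%, 4.72% and 4.86% of all UMIs of the kept cells.

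Ig genes took 60.8%, 61.5%, 60.04% and 61.9% of plasma cell UMIs, against 1.28% to 1.56% in Ighd-positive B cells. Igkc, the constant gene of the kappa light chain, alone took 38.6%, 40.0%, 43.4% and 41.4%. Nearly every cell used a single heavy chain constant gene: the leading class held a median of 99.9% of a cell's heavy constant UMIs, and under 90% in 6 cells. IgM was the most frequent class with 193 cells (58.8%), followed by IgA with 94 (28.7%), IgG2b with 27 (8.23%), IgG3 with 9, IgG2c with 4 and IgG1 with 1. No cell was assigned to IgD or IgE, which allows a share of up to 0.915% for each over the pooled cells, for counting error only.

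IgM plasma cells made up 57.3%, 60%, 61.0% and 57.7% of the plasma cells of the 4 libraries, and IgA plasma cells 30.1%, 24.3%, 32.5% and 26.9%. The 2 temperatures overlapped for both classes. IgG2b was found in 10.7%, 10.0%, 2.60% and 8.97%, and IgG3 in 0.971%, 2.86%, 3.90% and 3.85%. The temperatures did not overlap for these 2 classes, but each has an exact permutation p of 0.33, the smallest that 2 libraries against 2 can give. Adjusted over the 4 classes compared, p was 0.667 for each. The plot of class shares by library shows counting intervals much wider than the gaps between temperatures.

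**Figure D1:**
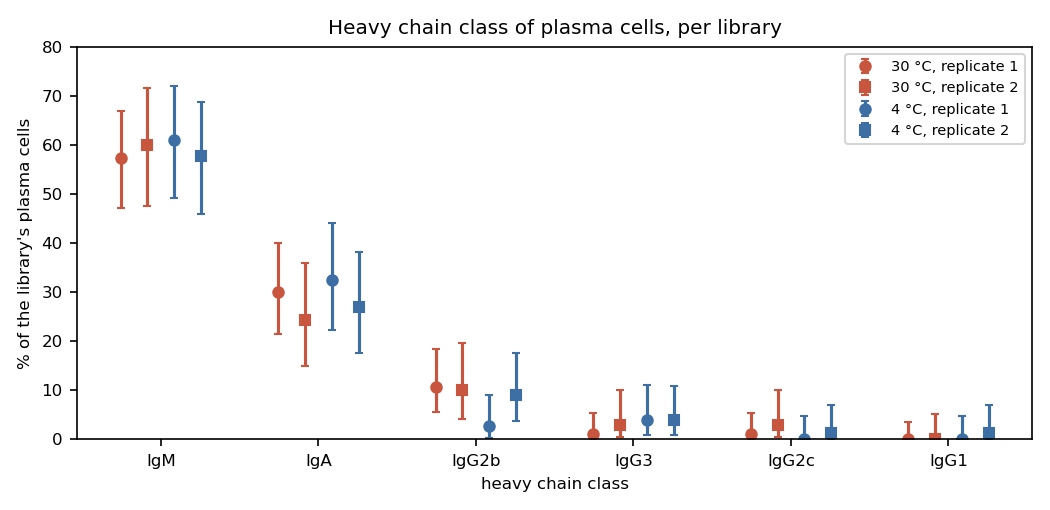
Share of each library's plasma cells (y axis, %) assigned to each heavy chain class (x axis), with points for the 4 libraries and exact 95% intervals as bars. IgM holds 57.3% to 61.0% and IgA 24.3% to 32.5% in every library.

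Lambda light chains, by the larger of the kappa and lambda constant counts, were used by 17, 12, 2 and 10 cells, or 16.5%, 17.1%, 2.60% and 12.8%. When Ig genes were kept in the fit across genes, 5 of 110 Ig genes tested passed an adjusted p of 0.05 (edgeR quasi-likelihood test), beside a background of 0.568% of all 6863 genes called in that fit. The one constant gene among them was Iglc2, which fell by 1.87 ± 0.14 (log2 fold change ± SE, adjusted p = 0.00395, edgeR). It took 3.34%, 3.34%, 0.993% and 0.944% of the UMIs, so both 4 °C libraries lay below both 30 °C libraries. Iglc2 and Iglc3 are near-identical, and the counting could split reads between them. Iglc3 took 0.419%, 0.070%, 0.124% and 0.754%, and Iglc1 3.78%, 4.35%, 0.693% and 3.67%. The other 4 genes called, Igkv8-27, Ighv1-78, Igkv2-112 and Igkv4-63, are V genes with at most 2 UMIs in each 30 °C library, and each had at least 10 UMIs in only 2 cells. The constant genes Ighm (0.14 ± 0.17), Igha (-0.01 ± 0.17) and Igkc (0.02 ± 0.21) did not pass the threshold (adjusted p = 0.833, 0.995 and 0.988, edgeR).

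A heavy chain V gene could be assigned to 291 cells, and both a heavy and a light chain V gene to 286, by at least 10 UMIs that were over 50% of the cell's V UMIs of that chain. These cells used 68 heavy chain V genes in 204 pairs, of which 157 occurred in 1 cell. The most frequent pair stood well apart from the rest: Ighv11-2 with Igkv14-126 was found in 15 cells, 3, 1, 1 and 10 in the 4 libraries, and 14 of them were IgM. This pair is known from B-1 cells that bind phosphatidylcholine. The next pairs had 5 cells each. Reads from the 3′ end do not give the joining sequence, so cells with the same pair are not known to be of 1 clone. The V gene segments of the recurrent pair are shown because they carry the finding. They are the last 240 coding bases of each V exon in the reference (GENCODE M21, GRCm38), at chr12:114048241-114048480 on the minus strand and chr6:67896403-67896642 on the plus strand. Capitals mark the last in-frame cysteine codon, where the third complementarity-determining region starts.
Ighv11-2: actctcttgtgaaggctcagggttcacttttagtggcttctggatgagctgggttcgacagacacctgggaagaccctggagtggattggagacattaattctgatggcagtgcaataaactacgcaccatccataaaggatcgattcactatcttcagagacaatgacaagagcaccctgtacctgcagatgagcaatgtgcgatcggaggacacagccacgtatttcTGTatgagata
Igkv14-126: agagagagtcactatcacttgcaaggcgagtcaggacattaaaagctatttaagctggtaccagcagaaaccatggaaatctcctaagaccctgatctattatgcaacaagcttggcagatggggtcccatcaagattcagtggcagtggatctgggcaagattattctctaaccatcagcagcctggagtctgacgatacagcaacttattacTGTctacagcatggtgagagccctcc

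V gene use by class is given as counts with no test, beside 58.8% IgM and 28.7% IgA among all plasma cells. All 4 cells with Ighv1-72 and Igkv12-46 were IgA, and of the 12 cells with Ighv1-72, 10 were IgA and 1 IgM. Of the 11 cells with Ighv7-1, 10 were IgM, and 9 of the 10 cells with Ighv7-3 were IgM. Other V genes were mixed, such as Ighv1-26 with 5 IgM and 4 IgA cells of 11, and Ighv1-80 and Ighv1-9 with 3 of each class among 8 cells. Ighv7-1 with Igkv7-33 occurred in 1 IgM cell of each of the 4 libraries. By UMIs, the 5 leading V genes were Iglv1, Igkv10-96, Igkv1-110, Igkv1-117 and Igkv12-44. Iglv1 held 4101, 4866, 3033 and 4897 UMIs. Single cells weigh heavily in such sums: 1 cell gave 29.8% of all Igkv12-44 UMIs, and the 4 libraries held 361, 620, 327 and 2.

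IgA and IgM plasma cells differed in receptor, activation and B cell genes. With the Ig genes and the 8 genes of the rule left out, 349 of 4964 genes differed between the classes within libraries (edgeR, adjusted p under 0.05), which is 7.03%. Of these 173 (3.49%) were higher in IgA cells and 176 (3.55%) in IgM cells. Homing receptors were among the leading genes. Ccr10, a receptor for chemokines of mucosal and skin epithelia, stood at 642, 490, 545 and 614 CPM, here and below of the genes tested and scaled by TMM, in IgA cells. In IgM cells it stood at 27.2, 53.9, 23.7 and 8.46. It was 4.41 ± 0.26 higher in IgA cells (log2 fold change ± SE, adjusted p = 5.5e-08, edgeR), and the classes did not overlap. Ccr10 lies at chr11:101172997-101175443 (mm10). Ccr9, the receptor that leads cells to the small intestine, was 4.58 ± 0.40 higher in IgA cells (adjusted p = 1.9e-06), with 61.4 to 135 CPM against 2.12 to 4.80. Itgb7, a chain of the gut-homing integrin, was 2.44 ± 0.28 higher (adjusted p = 3.6e-05), with 113 to 167 CPM against 14.4 to 40.4.

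Vpreb3, the lincRNA Gm19585 and the GTPase gene Gimap7 were the other largest rises in IgA cells among genes at or above the median level, by 3.27 ± 0.24, 3.26 ± 0.28 and 2.96 ± 0.30. Bst2, which encodes the membrane tether of enveloped viruses, was higher by 1.97 ± 0.12 (adjusted p = 5.5e-08, edgeR), with 1030 to 1270 CPM in IgA cells against 272 to 307 in IgM cells. IgA cells were also higher in 4 of 19 measured unfolded protein response and ER degradation genes. These were Xbp1 (0.75 ± 0.09), the mannosidase-like genes Edem1 (0.80 ± 0.11) and Edem2 (0.99 ± 0.11), and the stress kinase gene Eif2ak3. In the same list Ddit3, a stress-induced transcription factor, was lower in IgA cells (-1.12 ± 0.24). Of 30 translocon and transport genes 3 were higher in IgA cells (Ssr4, Sec11c and Lman1), and of 23 ER chaperones none was, while Pdia4 was lower (-0.52 ± 0.12). Beside the 3.49% of all genes higher and 3.55% lower in IgA cells, the counts of these 2 lists are no result about them. The list medians were -0.01, -0.02 and -0.22 in the order the lists are given, beside -0.0029 over all genes tested. Of 22 receptor and homing genes 7 were higher in IgA cells and 3 in IgM cells. The IgA cells were deeper in UMIs, with a median of 37118 per cell against 27981, and 67.7% against 58.7% of them from Ig genes. Their median Jchain count was 2824 against 1532, whereas per 1000 Ig UMIs the library medians were 105 to 112 in IgA cells and 89.3 to 107 in IgM cells.

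IgM cells were higher in genes of activation and of the B cell state. Egr1, an immediate early transcription factor, stood at 298, 280, 234 and 351 CPM in IgM cells and at 16.4, 6.28, 34.5 and 23.3 in IgA cells, a difference of -3.75 ± 0.27 (IgA against IgM, adjusted p = 2.2e-07, edgeR). In 30 °C replicate 1, 1 cell held 94 Egr1 UMIs, where the IgM cells together had 186 and the IgA cells 5. Of 20 immediate early genes measured, 7 were higher in IgM cells and none in IgA cells, beside 3.55% and 3.49% of all genes, among them Nr4a1 (-2.09 ± 0.35), Atf3 and Junb. Of 12 naive and mature B cell genes, 6 were higher in IgM cells and none in IgA cells: Ms4a1, Fcmr, Cd74, H2-Aa, H2-Ab1 and H2-Eb1. Chst1, a sulfotransferase gene, was lower in IgA cells (-4.14 ± 0.43), as were the activation marker gene Cd83 (-3.102 ± 0.37) and Gm8369 (-2.64 ± 0.23). Il5ra, which encodes the ligand-binding chain of the interleukin-5 receptor found on B-1 cells, had 157, 151, 56.6 and 44.4 CPM in IgM cells and 13.1, 25.1, 7.68 and 0 in IgA cells (-3.22 ± 0.36, adjusted p = 2.6e-05, edgeR). Cxcr4, the receptor for the bone marrow chemokine, was also lower in IgA cells (-1.70 ± 0.26, adjusted p = 5.1e-04). Each of the 10 genes named by the rule kept its call in all 6 alternatives run for this comparison.

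**Figure D2:**
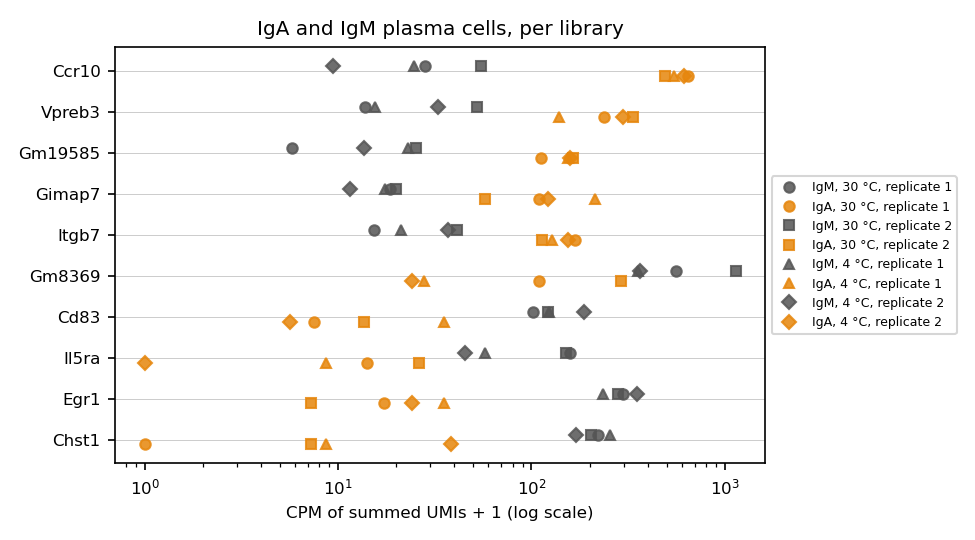
CPM plus 1 on a log axis (x) of the 5 genes most raised in IgA and the 5 most raised in IgM plasma cells among called genes at or above the median level (y), with 1 point per class and library. Within each gene the points of the 2 classes do not overlap, from Ccr10 (490 to 642 CPM in IgA cells) to Chst1 (169 to 256 CPM in IgM cells). The naming rule required the same direction in every library.

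More genes were lower than higher in plasma cells after acute cold. Of 6761 genes tested outside the Ig and rule genes, 97 passed the threshold (1.43%), 17 higher (0.251%) and 80 lower (1.18%) in the cold. An unadjusted p under 0.05 was found for 824. The split was uneven in the fit of all 4 libraries but 72 higher and 69 lower without 4 °C replicate 1. The median log2 fold change over all genes tested was 0.00. Each library is 1 pool of 4 mice, so the p-values measure the spread between pools, 2 at each temperature.

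Fkbp5, a co-chaperone of the glucocorticoid receptor and one of its best known targets, fell the most among genes of at least median level. It went from 77.2 and 93.8 CPM in the warm libraries to 3.39 and 7.09 in the cold ones (log2 fold change -3.98 ± 0.36, adjusted p = 3.5e-05, edgeR). It lies at chr17:28399094-28517527. Zfp36l2, an mRNA decay factor, was the most abundant of the leading falls, with 1754 and 2118 CPM against 181 and 233 (-3.23 ± 0.16, adjusted p = 1.9e-07). Ddit4, an inhibitor of the growth kinase mTOR, had 180 and 122 CPM against 12.4 and 18.9 (-3.29 ± 0.29). Sesn1, another brake on mTOR, had 394 and 433 against 52.0 and 47.3 (-3.05 ± 0.17). Pik3ip1, an inhibitor of phosphoinositide kinase signalling, had 55.7 and 84.4 against 11.3 and 15.4 (-2.34 ± 0.33). In each of these genes the 2 libraries at 4 °C were both far below those at 30 °C, where a lack of overlap was required for naming.

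The list of glucocorticoid and FOXO target genes had 15 of its 20 genes tested, of which 6 fell and none rose, beside 1.18% and 0.251% of all genes tested. Besides Fkbp5, Ddit4, Sesn1 and Pik3ip1 these were Tsc22d3 (-1.30 ± 0.14), which encodes the glucocorticoid-induced protein GILZ, and Ucp2 (-0.83 ± 0.16), a mitochondrial carrier that lost its call in 4 of 16 alternatives. The list's median was -0.82, beside 0.00 over all genes, and 14 of 15 estimates were below 0. Per1, a clock gene that glucocorticoids induce, stood at -0.88 and Txnip at -0.82 without passing the threshold. The list was chosen with results of these data known, so its direction is no independent evidence.

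The other leading falls had varied roles. The metallothionein genes Mt1 and Mt2, whose products bind zinc, fell together: Mt1 had 1610 and 1172 CPM at 30 °C and 253 and 337 at 4 °C (-2.24 ± 0.18, adjusted p = 1.9e-05, edgeR), and Mt2 had 267 and 142 against 30.5 and 59.1 (-2.24 ± 0.31). One cell held 21.7% of all Mt2 UMIs, and the Mt2 call was lost without the cells that had a Mki67 or Top2a UMI and with Ig genes kept. Pnpla2, which encodes adipose triglyceride lipase, had 214 and 242 CPM against 57.6 and 46.1 (-2.12 ± 0.19). The lincRNA Gm20186 fell by 2.09 ± 0.19, the channel gene Calhm2 by 2.38 ± 0.31, the endosomal gene Ppp1r21 by 2.59 ± 0.30, and Smad4, the common mediator of TGF-β signalling, by 1.94 ± 0.26. Among all 12 named falls, 10 kept their call in each of the 16 alternatives run, the exceptions being Mt2 and Smad4.

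Rises were fewer and less stable. Ptpn6, which encodes the inhibitory phosphatase SHP-1, rose the most among genes of at least median level, from 35.01 and 48.4 CPM to 172 and 125 (1.88 ± 0.23, adjusted p = 5.8e-04, edgeR). It lies at chr6:124720707-124738714. Dynll1, a dynein light chain, rose from 204 and 189 to 492 and 449 CPM (1.25 ± 0.15, adjusted p = 3.4e-04). Irf8, a transcription factor of B and myeloid cells, rose from 41.3 and 46.9 to 123.2 and 81.5 CPM (1.23 ± 0.24). In 4 °C replicate 1, 1 cell held 61 of the 109 Irf8 UMIs, or 24.0% of those of all libraries. The Irf8 call was lost in 5 of 16 alternatives, with estimates from 0.57 to 1.73. The other named rises were the corepressor Cbfa2t3 (1.64 ± 0.27), the interferon-inducible Ifi203 (1.24 ± 0.25), the proteasome regulator Nfe2l1 (1.20 ± 0.26), the oligosaccharyltransferase subunit Stt3b (1.03 ± 0.20), Evi2a (1.02 ± 0.17), the cathepsin Ctso (1.00 ± 0.19), the pentose phosphate enzyme Rpia (0.98 ± 0.20) and the clathrin heavy chain Cltc (0.85 ± 0.19). Of these 11, Ptpn6 and Dynll1 kept their call in all 16 alternatives, and each of the other 9 lost it in at least 1. The plot of these genes by library shows the gap between temperatures in each, which the naming rule required.

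**Figure D3:**
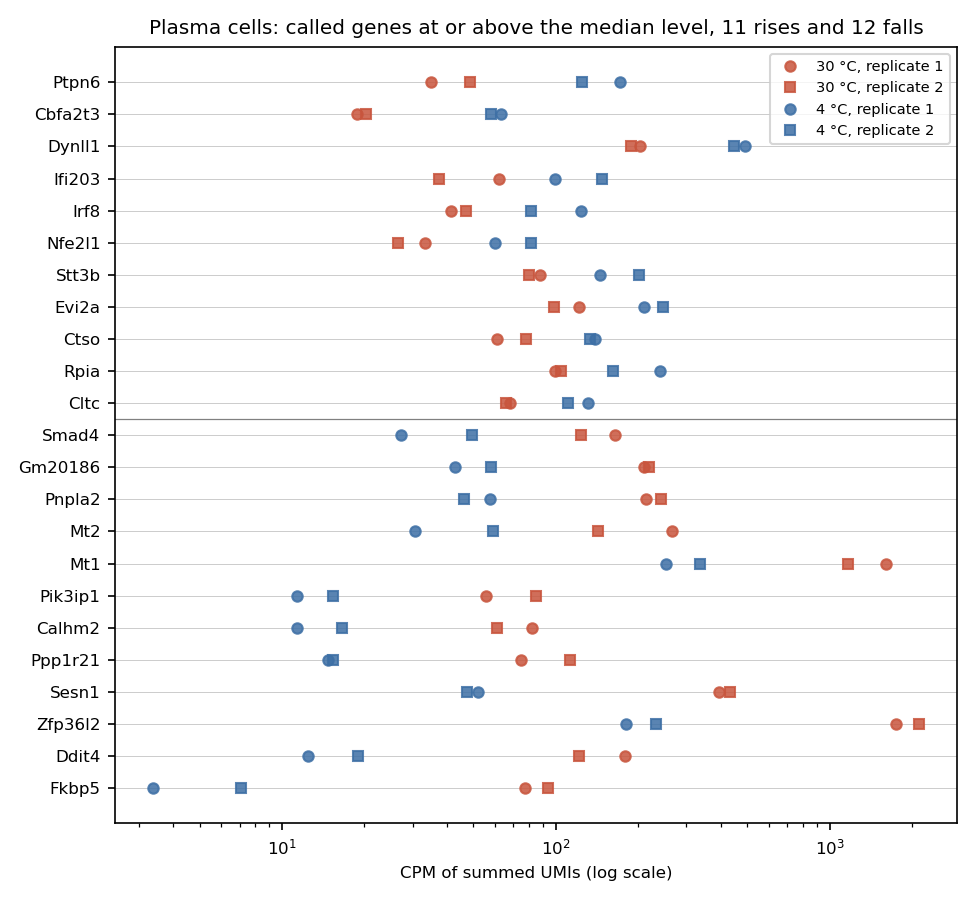
CPM on a log axis (x) of 11 rises (top) and the 12 largest falls (bottom) at 4 °C in plasma cells among called genes at or above the median level, with 1 point per library, red at 30 °C and blue at 4 °C. Genes were named only if the temperatures did not overlap, so that gap is no result. Zfp36l2 reaches 1754 and 2118 CPM at 30 °C against 181 and 233 at 4 °C.

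In the secretory machinery few genes were called, which is near the background of 1.43% and so no result about these lists. None of 23 ER chaperones and folding enzymes passed the threshold, and their median was 0.13 (the main ER chaperone gene Hspa5 0.40 ± 0.12, Hsp90b1 0.25 ± 0.11 and the co-chaperone gene Dnajb9 0.67 ± 0.16). None of 30 translocon, glycosylation and vesicle transport genes passed it, with a median of 0.07. Genes of like function outside these lists were called, among them Stt3b and Cltc, named above, and, chosen after their values were seen, the fucosyltransferase gene Fut8 (-0.80 ± 0.18) and the ER degradation gene Ube2j1 (-0.73 ± 0.14). Of 19 unfolded protein response and ER degradation genes, Herpud1 alone passed it. Herpud1, a membrane protein of ER-associated degradation, went from 3940 and 3396 CPM down to 1183 and 1132 (-1.66 ± 0.12, adjusted p = 4.7e-06, edgeR), and it kept its call in all 16 alternatives. Xbp1 (0.06 ± 0.13), Atf4 (-0.04 ± 0.14) and Ddit3 (0.14 ± 0.25) stayed near 0, and the list's median was 0.06. The tests do not show that those levels were equal.

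Herpud1 is known as a target of ER stress factors that bind the ER stress response elements. Its promoter is shown because it was the one member of its list called. The 250 bases before the gene's start (RefSeq, GRCm38.p6, chr8:94386179-94386428, plus strand) were searched on both strands for the elements known as ERSE and ERSE-II. The window held 1 match to ERSE-II, in capitals, which starts 52 bases before the gene, and no whole match to ERSE. The last bases of the window match ERSE up to its final base, which lies outside the window and was not searched. Of 32851 promoter windows of that length, 0.0304% held ERSE-II and 0.113% held ERSE. A match of letters does not show binding.
Herpud1: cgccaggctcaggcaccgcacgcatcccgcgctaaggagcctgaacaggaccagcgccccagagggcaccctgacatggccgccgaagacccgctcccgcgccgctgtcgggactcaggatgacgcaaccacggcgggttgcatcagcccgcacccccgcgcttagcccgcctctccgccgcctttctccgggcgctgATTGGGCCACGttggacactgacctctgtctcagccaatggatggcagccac

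Lists of plasma cell identity and survival are read beside the 1.18% of all genes that fell. Of 12 transcription and RNA processing genes, 2 fell: Eaf2, an elongation factor partner, from 1069 and 955 to 517 and 577 CPM (-0.89 ± 0.13), and the zinc finger gene Zbtb20 from 552 and 583 to 236 and 324 CPM (-1.02 ± 0.16), a call that Zbtb20 lost in 3 of 16 alternatives. Prdm1 (-0.52 ± 0.18) and Irf4 (0.32) did not pass the threshold. Of 22 surface receptor and homing genes, 1 fell, which is near that share. This was Il5ra, from 110 and 106 to 38.4 and 26.0 CPM (-1.74 ± 0.23, adjusted p = 9.6e-04, edgeR), which kept its call in all 16 alternatives, that with IgM cells alone included. The homing receptors that set IgA cells apart did not pass the threshold with temperature (Ccr10 -0.05 ± 0.17, Ccr9 0.13 ± 0.35, Itgb7 0.06 ± 0.24). Of 10 survival and cell death genes, 2 fell, the anti-apoptotic Bcl2 (-0.80 ± 0.15) and the NF-κB inhibitor Tnfaip3 (-0.88 ± 0.20), and the list's median was -0.65. Tnfaip3 lost its call in 8 of 16 alternatives and Bcl2 in 4. Mcl1, on which plasma cell survival is known to depend, stood at 0.53 ± 0.13 (adjusted p = 0.068, edgeR). None of 16 naive and mature B cell genes passed the threshold.

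Xaf1, an interferon-inducible gene, rose (2.02 ± 0.45, adjusted p = 0.044, edgeR) and lost its call in 8 of 15 alternatives. The next lists are read beside the 0.251% of all genes that rose and the 1.18% that fell. Of 21 genes tested in the immediate early list, Egr3 rose and Zfp36l2, the mRNA decay factor named above, fell. The list's median was 0.23. Egr3, an early transcription factor, went from 3.59 and 4.69 to 29.4 and 33.1 CPM (2.92 ± 0.44, adjusted p = 0.0026, edgeR). Of 11 heat shock and cold-inducible genes, 1 fell: Cirbp, an RNA-binding protein known for its induction by mild hypothermia, from 251 and 263 to 171 and 128 CPM (-0.78 ± 0.17, adjusted p = 0.037), and it lost its call in 6 of 16 alternatives. Of 17 cell cycle genes, 1 passed the threshold, the chromatin gene Hmgb2 (-1.08 ± 0.19), and 16 estimates were below 0, with a median of -0.72. Hmgb2 lost its call in 5 of 16 alternatives, with estimates from -1.53 to -0.24, the latter without the cells that had a Mki67 or Top2a UMI. Cells with a Mki67 or Top2a UMI made up 20.4%, 24.3%, 42.9% and 35.9% of the plasma cells. Thinned to 6800 non-Ig UMIs per cell, which left out 33 shallower cells, they made up 19.6%, 16.9%, 31.5% and 24.2% (exact permutation p = 0.33, the smallest possible). These shares were higher at 4 °C while the summed levels of both genes had negative estimates, so no direction was read from either. The estimates of Mki67 (-0.34) and Top2a (-0.31) changed sign without 30 °C replicate 1, without 4 °C replicate 1 and without the 42 cells with UMIs of another lineage. None of 12 amino acid genes, 12 glycolysis genes or 4 acetylcholine and adrenergic genes passed it. Chat, the gene behind the sorted reporter, had 109, 155, 174 and 183 CPM (0.47 ± 0.18, adjusted p = 0.306, edgeR). Leaving out 1 library moved the Chat estimate from 0.201 to 0.691. Cells with a Chat UMI made up 55.3%, 61.4%, 68.8% and 71.8% of the plasma cells. Thinned in the same way, they made up 41.2%, 45.8%, 53.4% and 59.1% (exact permutation p = 0.33, the smallest possible). The plot of gene lists sets these members side by side.

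**Figure D4:**
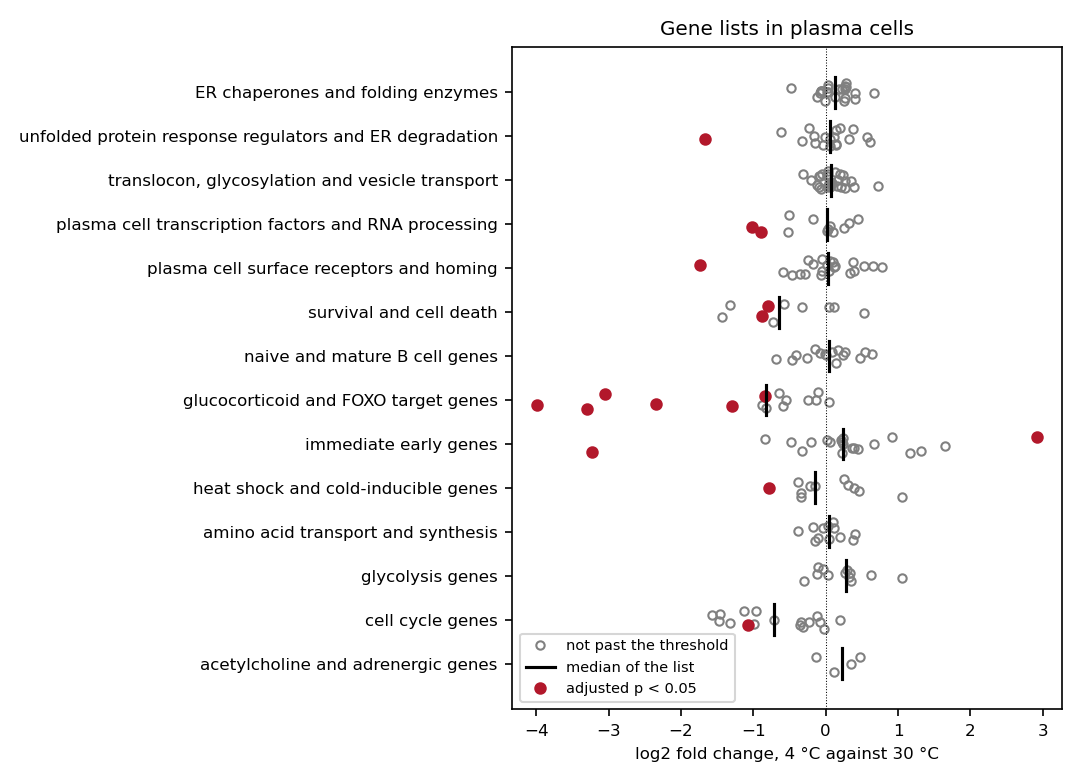
Log2 fold change at 4 °C against 30 °C (x) of every tested member of 14 gene lists (rows) in plasma cells, with filled points past an adjusted p of 0.05 and bars at the list medians. The glucocorticoid and FOXO targets have 6 filled points below 0 and a median of -0.82, while the ER chaperones have none and a median of 0.13.

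To see which changes plasma cells shared with other B lineage cells, the same libraries' 6689 Ighd-positive B cells were fitted in the same way. There 1622 of 11236 genes passed the threshold (14.4%), 773 higher (6.88%) and 849 lower (7.56%) in the cold, in sums of 12788325 to 16861051 UMIs. Of the 97 genes called in plasma cells, 92 were tested in B cells, 54 passed there with the same sign, 1 with the opposite sign and 37 did not pass. Both fits use the same 4 pools of mice, so the overlap is no independent support. The difference between the cell types was tested as an interaction in a fit with each library as a term, and 105 of 11279 genes passed (0.931%), 38 (0.337%) with a more positive and 67 (0.594%) with a more negative change in plasma cells. Of the 97 genes, 46 were among them. The 97 were called from the same plasma cell sums that enter this fit, so that count is no independent result.

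Fkbp5, Pik3ip1, Ppp1r21, Gm20186, Cbfa2t3, Dynll1 and Evi2a changed in both cell types, and their interaction did not pass the threshold. Fkbp5 fell by 3.01 ± 0.09 and Pik3ip1 by 2.43 ± 0.07 in B cells. Sesn1, Zfp36l2, Ddit4 and Mt1 fell in both cell types and more so in plasma cells, with interactions of -0.96, -0.76, -1.53 and -1.09. Herpud1 fell by 0.58 ± 0.06 in B cells, and its interaction was -1.13 (adjusted p = 4.8e-07, edgeR). Calhm2 (-0.12 ± 0.08), Smad4 (-0.22 ± 0.08) and Il5ra (-0.11) did not pass the threshold in B cells, and their interactions were -2.31, -1.75 and -1.67. Pnpla2 fell by 0.29 ± 0.08 in B cells, with an interaction of -1.87 (adjusted p = 4.8e-07). Stt3b rose in plasma cells and fell in B cells (-0.24 ± 0.06), with an interaction of 1.21 (adjusted p = 2.2e-04).

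**Figure D5:**
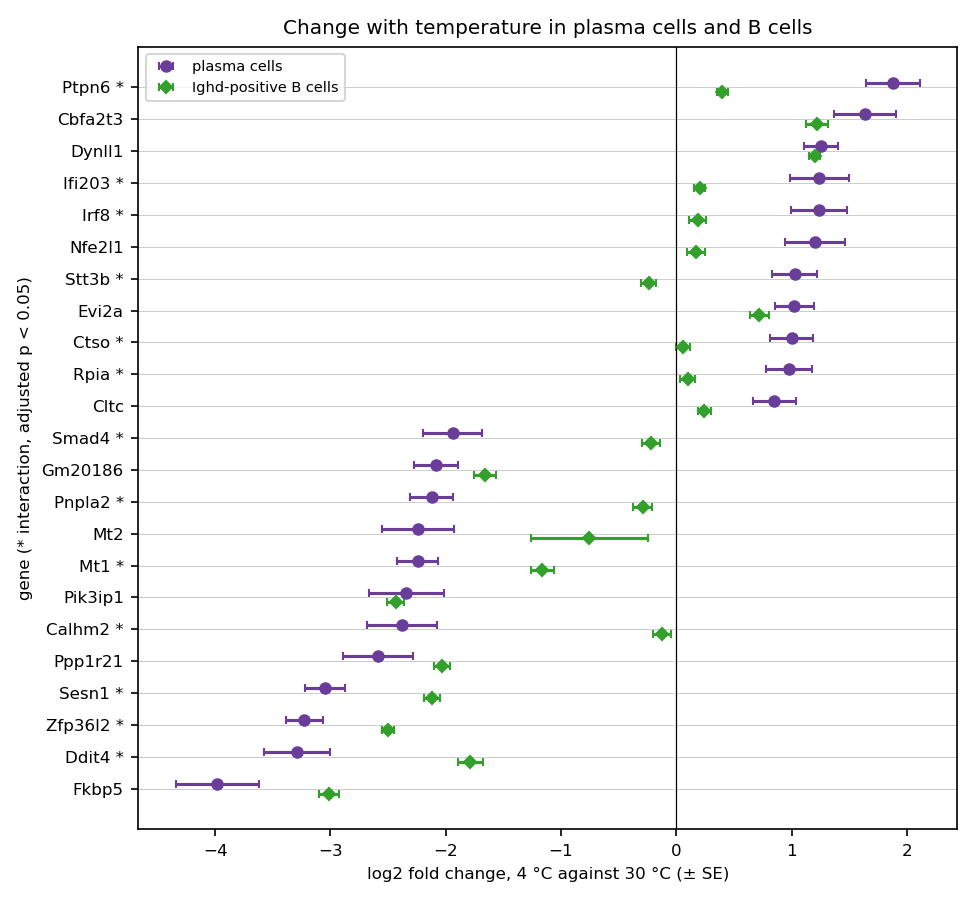
Log2 fold change at 4 °C against 30 °C with SE bars (x) of 23 named genes (y) in plasma cells (circles) and Ighd-positive B cells (diamonds), with a star where the interaction passed an adjusted p of 0.05. Dynll1 lies at 1.25 and 1.20 in the 2 cell types, while Calhm2 lies at -2.38 and -0.12.

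Among called genes at or above the median level, the 5 largest positive interactions were Dcn, Dnase1l3, Krt222, Sgk3 and Id2, and the 5 largest negative ones Calhm2, Rpap3, Ccl5, Cdk17 and Pclaf. Sgk3, a kinase gene, had 32.3, 48.4, 44.1 and 53.2 CPM in plasma cells (0.32 ± 0.27, not past the threshold) and fell by 1.39 ± 0.07 in B cells. Rpap3, a co-chaperone adaptor, had 43.1, 71.9, 10.2 and 11.8 CPM in plasma cells (-2.31 ± 0.36, adjusted p = 0.0034, edgeR) and -0.06 ± 0.11 in B cells. Id2, an inhibitor of transcription factors, fell in B cells (-0.78 ± 0.09) and stood at 0.81 ± 0.31 in plasma cells without passing the threshold. Dcn, a gene of fibroblasts, had 309 of its 494 UMIs of 4 °C replicate 2 in 1 cell, as given above, and lost its call without 4 °C replicate 2 and with DESeq2. Dnase1l3 had 55.7% of its 61 UMIs in 1 cell, Ccl5 25.3% of its UMIs and Pclaf 24.8%. When single libraries were left out, the interaction gave 20 to 146 calls, with 20 without 30 °C replicate 1.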

How the data were processed

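Counts of UMIs per gene and cell were deposited by the authors, 1 filtered matrix per library. The submitters' processing notes name Cell Ranger 3.1.0, STAR, Seurat 4.2.0 and GRCm38 (mm10), while the file headers name Cell Ranger 3.0.0. The deposited matrices held 6883, 6881, 6272 and 6618 cells with 76058112, 84317319, 80973104 and 84468931 UMIs. Groups followed the labels. No doublet caller was run. A planned filter on 2 UMIs of another lineage left 3 cells, since Cst3 is abundant in plasma cells, and gave no value.

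UMIs of plasma cells were summed per library and tested with edgeR 4.0.16 in R 4.3.3 (filterByExpr, TMM, quasi-likelihood test, Benjamini-Hochberg adjustment at 0.05), without 392 Ig genes and the 8 genes of the rule, and once with Ig genes. IgA and IgM sums were compared with the library as a block. Ighd-positive B cells were fitted likewise, and an interaction gave the difference. SE is the log2 fold change divided by the square root of F. CPM are of UMIs of tested genes with TMM scaling, whereas CPM of markers are of all non-Ig UMIs. Scripts were tested on simulated data. DESeq2 1.42.0, RLE scaling, no filter on low counts, a replicate block, other cell limits and leaving out libraries were the alternatives. Exact tests used scipy 1.17.1.

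Genes were named by rule: of those called, at or above the median level and without overlap, the 12 largest rises and falls, or 5 each for the class comparison and interaction, plus list members, Chat, constant genes and the 5 V genes with most UMIs. The members and lists were chosen with earlier results of these data known. 1 gene that the rule named among the rises, and the list that holds it, are not reported here.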

Additional observations from a re-analysis of the deposited data

Results flagged for a closer look

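The change with temperature differed between plasma cells and Ighd-positive B cells in 105 genes, by the edgeR interaction test at an adjusted p of 0.05. The 10 named by the rule are given as the plasma cell change minus the B cell change on the log2 scale. Dcn had 11.46, from 2, 1, 2 and 494 plasma cell UMIs. Dnase1l3 had 2.07, from 6, 4, 40 and 11 UMIs, of which 34 lay in 1 cell. Krt222 had 1.79, Sgk3 1.66 and Id2 1.55. Calhm2 had -2.31, Rpap3 -2.31, Ccl5 -2.22, Cdk17 -1.95 and Pclaf -1.93. For Pclaf, 1 cell held 35 of the 40 UMIs of 30 °C replicate 2. For Ccl5, 1 cell held 24 of the 42 UMIs of 30 °C replicate 1. Ccl5 stood at -0.87 ± 0.39 in plasma cells without passing the threshold, and at 42.4, 38.0, 55.0 and 146 CPM in B cells. For Id2, 1 cell held 20 of the 57 UMIs of 4 °C replicate 2. Calhm2, Rpap3 and Sgk3 kept their call in 6 of 7 alternatives, Dcn and Ccl5 in 5, Krt222, Id2 and Cdk17 in 3, and Dnase1l3 and Pclaf in 2.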

How the results depend on the processing

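Counts of genes past the threshold moved with the processing. For temperature without Ig genes (97 genes), DESeq2 gave 56, no filter on low counts 264 and Ig genes kept in the fit 34, and leaving out 1 library gave 103 to 204 (204 without 30 °C replicate 1 and 168 without 30 °C replicate 2). The lone library left at a temperature was assumed to vary like the others. With Ig genes (39), DESeq2 gave 67, no filter 253 and leaving out 1 library 60 to 223. For the interaction (105), DESeq2 gave 30 and leaving out 1 library 20 to 146. For IgA against IgM (349), DESeq2 gave 132 and leaving out 1 library 221 to 256. Replicate numbers are shared between temperatures but nothing ties them to animals, and same-numbered libraries deviated together with r = 0.005 over 6761 genes and 0.103 over the 3381 at or above the median level. With the replicate block, 298 genes passed without Ig genes and 67 with them. With it in place of the library term, 72 passed for the interaction, and Dnase1l3, Krt222, Ccl5 and Pclaf lost their call. Leaving out 1 library moved log2 fold changes across 0 for Mki67 (-0.785 to 0.422), Top2a (-1.28 to 0.308), Igha (-0.110 to 0.0754), Ighg2b (-2.52 to 0.0213), Igkc (-0.0276 to 0.0553) and Iglc3 (-1.12 to 2.58), and the difference in plasma cell share from -0.532 to 0.153 percentage points, above 0 without 30 °C replicate 1. Without the cells with 5 UMIs of another lineage, Mki67 stood at 0.11 and Top2a at 0.26. Leaving out 1 library moved the difference in IgM share from -0.948 to 2.40 and in IgA share from -0.402 to 5.41 percentage points. Of 635 values of single genes without Ig genes, 537 kept their direction and side of the threshold and 92 lost the threshold. The causes were not tested. With 70 to 103 plasma cells per library, genes of few UMIs rest on few cells.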

Other observations

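Some V gene pairs recurred in 1 library alone, given as values with no test. Ighv1-75 with Igkv14-111 was found in 5 cells of 30 °C replicate 1, none of them IgM or IgA. Ighv2-3 with Igkv5-39 was found in 5 IgM cells of 4 °C replicate 1. Of the 47 pairs found in 2 or more cells, 24 occurred in 2 or more libraries and 2 in all 4.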
